A study of Mus musculus with 15 samples.

Results

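The genes described here mark the walls of brain blood vessels and the fibroblasts around them. They are 36 genes in 3 groups, 21 of endothelial cells, 9 of mural cells (pericytes and vascular smooth muscle) and 6 of perivascular and meningeal fibroblasts. They were taken by symbol from a gene table of 27179 IDs. All 36 were in the table, and all 36 were among the 17151 genes that passed the filter on low counts.

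The study compared 7 libraries from PLP-α-synuclein mice (TG) with 8 from non-transgenic C57Bl/6 mice (WT). The TG mice were homozygous and overexpressed human α-synuclein from the PLP promoter, which is active in oligodendrocytes, as a model of multiple system atrophy. Both groups held males and females (TG 4 females and 3 males, WT 4 and 4), all were aged 12 months, and no treatment is labelled. RNA came from bulk tissue labelled as hemisphere, so that fewer cells of a type and less RNA per cell cannot be told apart. The labels do not say that each library came from a separate animal, and p-values then measure only the spread between these samples. In the sample titles, all libraries of a genotype-and-sex group share the same leading number. Genotype and sex cannot be told apart from whatever that number stands for.

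Brain endothelial cells are sealed by tight junctions and carry the transporters of the blood-brain barrier, and their growth is steered by vascular endothelial growth factor and angiopoietin receptors. Pericytes lie on capillaries and help to maintain the barrier, while smooth muscle cells wrap arteries and arterioles and contract. Fibroblasts make the collagen and proteoglycans of the meninges and of the sheaths around larger vessels, and capillaries have almost none of them.

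The libraries held 15170772 to 35850998 counts (median 17635366). Levels are given as CPM, counts scaled to a common library size by TMM. Depending on the library, a count of 3 equals 0.0837 to 0.198 CPM, a limit for counting error only. Although all libraries carry the same tissue label, their neuronal region markers differed. Clustering on region genes, none of them a vascular gene, gave 4 classes named by their markers. The olfactory class held 7 libraries (4 WT, 3 TG), the hindbrain class 4 (2 WT, 2 TG), the cortex class 3 (2 WT, 1 TG) and the cerebellum class 1 (TG female 3). These classes come from the data and are not groups of the study. The hindbrain class held 1 male, WT male 3. In the cortex class WT male 4 also held olfactory bulb markers, with a mean of 2.99 log2 CPM against -0.01 in WT female 2 and -0.41 in TG male 4, and 5.74 to 7.22 in the olfactory class.

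Marker levels of some other cell types moved with the classes. The summed level of 8 oligodendrocyte markers was 17720 to 22950 CPM in the hindbrain class against 1868 to 3515 CPM in the olfactory class, and that of 8 astrocyte markers was 5174 to 7101 CPM against 3165 to 4129 CPM. The 8 perivascular macrophage markers overlapped between these classes, at 15.04 to 31.0 CPM against 12.5 to 35.7 CPM. The 10 choroid plexus markers summed to 207.5 to 258 CPM against 107.8 to 135 CPM. Most of the hindbrain sum was Enpp2, at 158.6 to 206.3 CPM against 48.2 to 60.4 CPM. Ttr was at 0.968 to 3.53 CPM against 0.11 to 0.906 CPM. Aqp1 went the other way, at 0.472 to 0.965 CPM against 16.0 to 57.1 CPM. The part of these cells in the class differences was not tested.

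The endothelial genes Egfl7 and Tie1 were called higher in the hindbrain than in the olfactory class. Both carry the letters ACAGGAA, a core bound by ETS factors, before their start sites. Emcn also holds this motif but did not pass the test of that difference given below, and Tie1 lost its call without WT male 3. For Egfl7 and for Tie1 the hindbrain and olfactory libraries overlapped. Egfl7 was also called higher in the cortex than in the olfactory class, and its hindbrain libraries overlapped those of the cortex class. Whether the motif bears on these levels was not tested. The upstream sequences of Egfl7 and Tie1 are shown because both hold it, at different positions and on different strands. Within the hindbrain class TG female 1 was highest for Tie1 (15.4 CPM) and lowest for Egfl7 (21.2 CPM). The 250 bases before the start, from RefSeq on GRCm38.p6, run 5′ to 3′ on the gene's strand, with the motif in capitals.
Egfl7, chr2:26580833-26581082, plus strand: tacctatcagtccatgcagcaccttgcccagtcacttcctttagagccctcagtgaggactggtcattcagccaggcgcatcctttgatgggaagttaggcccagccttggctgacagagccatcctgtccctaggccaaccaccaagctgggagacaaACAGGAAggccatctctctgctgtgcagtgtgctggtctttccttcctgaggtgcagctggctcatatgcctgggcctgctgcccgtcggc
Tie1, chr4:118489850-118490099, minus strand: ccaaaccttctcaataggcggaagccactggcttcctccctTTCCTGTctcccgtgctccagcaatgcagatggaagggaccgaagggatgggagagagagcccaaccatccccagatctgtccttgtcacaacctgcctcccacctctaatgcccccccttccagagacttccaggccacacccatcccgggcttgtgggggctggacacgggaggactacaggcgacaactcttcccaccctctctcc
In Egfl7 the motif lay at -91 to -85 from the start site and read on the gene's strand. In Tie1 it lay at -209 to -203 and read on the opposite strand, so that it is printed as its reverse complement. Promoter windows of 300 bases (250 before and 50 after the start) were found for 22 of the 36 genes. ACAGGAA, searched on both strands, was in 4 of 16 windows of 13 endothelial genes (Egfl7, Emcn and Tie1), in none of the 6 mural windows, in 1 of 8 windows of 3 fibroblast genes (Igf2, also higher in the hindbrain class), and in 8.67% of 32851 windows of all genes. The CArG box of smooth muscle genes was searched as CC, 6 letters of A or T, and GG. It was in none of the 6 mural windows, which cover 6 of the 9 mural genes, and in none of the 16 endothelial windows. It was in 1 of the 8 fibroblast windows (Igf2) and in 1.63% of all windows. Looser or more distant matches were not searched. The printed sequences hold no CArG box, and a match to either motif is a description and not a binding site.

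Per kilobase of exon, the highest endothelial levels in the olfactory class were those of Itm2a (38.2 ± 6.28 CPM per kb, SD, n = 7), Cldn5 (32.6 ± 5.66) and the glucose transporter Slc2a1 (21.8 ± 3.38). The lowest was that of the sialomucin Emcn (0.36 ± 0.0917). Among mural genes the adhesive glycoprotein Vtn stood highest (48.3 ± 9.06) and the smooth muscle myosin Myh11 lowest (0.657 ± 0.21). Among fibroblast genes the growth factor Igf2 was highest (18.2 ± 3.58) and the collagen chain Col1a2 lowest (0.442 ± 0.128). The mean log2 CPM over the 21 endothelial genes was 4.45 to 4.51 in the 4 hindbrain libraries and 3.75 to 4.25 in the 7 olfactory libraries, without overlap. Over the 9 mural genes the ranges were 3.37 to 4.00 and 2.91 to 3.59, and over the 6 fibroblast genes 3.38 to 4.88 and 3.00 to 4.25, and both overlapped.

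**Figure D1:**
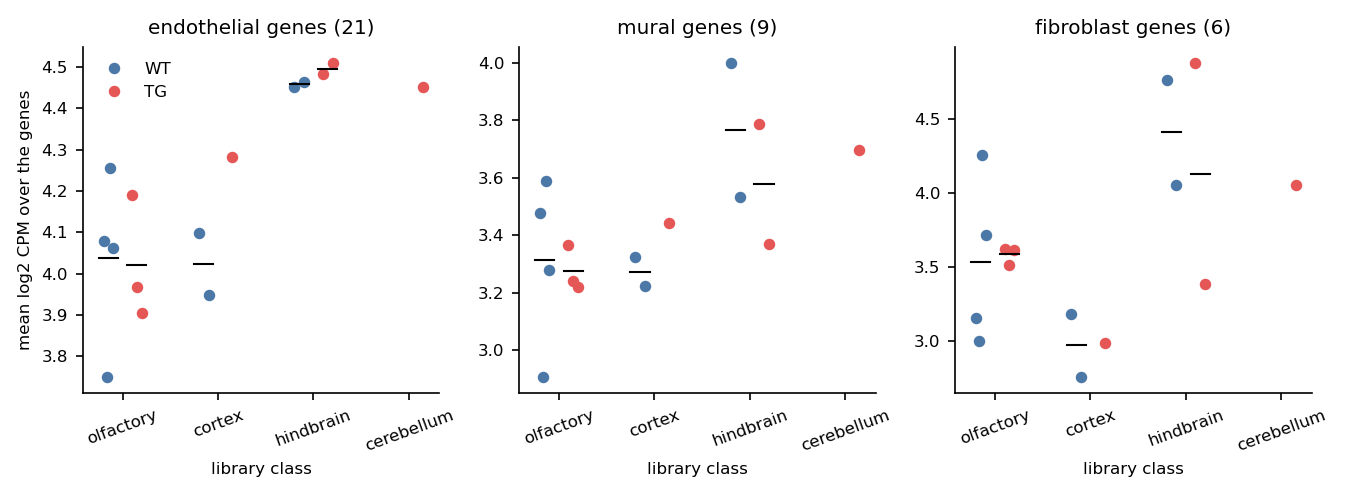
Mean log2 CPM over the endothelial, mural and fibroblast genes (vertical axes, each with its own range) in each library, by library class (horizontal axis); points are libraries, blue WT and red TG, and bars are means of 2 or more libraries. All 4 hindbrain libraries sit at 4.45 or above for endothelial genes, while fibroblast genes spread from 3.38 to 4.88 in the same class.

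In the hindbrain class 20 of the 36 genes were higher than in the olfactory class and 1 was lower, by edgeR's quasi-likelihood test (p adjusted after Benjamini and Hochberg over all genes, threshold 0.05). Over all genes tested, 66.8% passed in either direction, 33.1% higher and 33.7% lower. The median log2 difference was 0.45 over the 36 genes and 0.00 over all genes. In 11 genes the libraries of the hindbrain class all lay above those of the olfactory class, and in none below, against 24.8% and 25.7% of all genes.

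Of the 21 endothelial genes, 12 rose and none fell. The 2 with the smallest p were barrier transporters. Slc2a1, which carries glucose across the barrier and is also made by astrocytes, was at 130 CPM in WT male 3, 135 in WT female 3, 138 in TG female 1 and 146 in TG female 4, against 58.7 to 89.8 CPM with a median of 71.3 in the olfactory class. All hindbrain libraries were above all olfactory ones. The log2 difference was 0.81 ± 0.10 (SE), or 1.75-fold (edgeR adjusted p = 8.19e-06). Mfsd2a, the lysolipid carrier that brings in docosahexaenoic acid, was at 22.2 CPM in WT male 3, 28.9 in WT female 3, 25.7 in TG female 1 and 32.2 in TG female 4, against 12.3 to 15.5 with a median of 12.8. These groups did not overlap either. Its log2 difference was 1.02 ± 0.13, or 2.03-fold (edgeR adjusted p = 1.7e-05).

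The drug efflux pump Abcb1a (0.16 log2) and the organic anion transporter Slco1a4 (0.21 log2) did not pass. Junction and adhesion genes rose by less, Cdh5 by 0.51, Esam by 0.45 and Pecam1 by 0.44 on the log2 scale. Cldn5, the main claudin of brain endothelium, had the lowest endothelial value. It was at 35.9 CPM in WT male 3, 33.1 in WT female 3, 34.1 in TG female 1 and 45.5 in TG female 4, against 38.4 to 61.5 with a median of 47.1, and the classes overlapped. Its log2 difference of -0.34 ± 0.17 did not pass.

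Of the receptors, the growth factor receptor Flt1 rose by 0.48 log2 and the angiopoietin receptor relative Tie1 by 0.57, with Ptprb, the phosphatase acting on the angiopoietin receptor, rising by 0.45. Kdr (0.12) and Tek (0.23) did not pass. The secreted Egfl7 rose by 0.72 and the clotting factor carrier Vwf by 0.91. The surface proteins Ly6a and Ly6c1 rose by 0.48 and 0.43. The transcription factors Sox17 (0.25) and Sox18 (0.26), the membrane protein Itm2a (0.05) and Emcn (0.36) did not pass.

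Of the 9 mural genes, 4 rose and 1 fell. Abcc9, the sulfonylurea receptor subunit of the pericyte potassium channel, was at 14.3 CPM in WT male 3, 17.3 in WT female 3, 16.6 in TG female 1 and 13.1 in TG female 4, against 4.42 to 7.07 with a median of 5.65. The classes were well apart. Its log2 difference was 1.37 ± 0.14, or 2.58-fold (edgeR adjusted p = 3.1e-06). Notch3, the Notch receptor of mural cells, was at 34.1 CPM in WT male 3, 33.3 in WT female 3, 37.0 in TG female 1 and 41.5 in TG female 4, against 17.3 to 25.1 with a median of 20.1. It too did not overlap, with a log2 difference of 0.79 ± 0.11, or 1.73-fold (edgeR adjusted p = 2.3e-05).

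Pericyte genes did not move as one. Rgs5, a regulator of G protein signals, rose by 0.33 log2. Pdgfrb, the receptor that recruits pericytes, did not pass, at 20.04 ± 2.91 CPM (SD, n = 7) in the olfactory and 19.5 ± 2.62 CPM (n = 4) in the hindbrain class. Vtn did not pass either, at 98.0 ± 18.4 and 114.6 ± 38.3 CPM. Anpep, aminopeptidase N, went the other way. It was at 2.82 CPM in WT male 3, 2.33 in WT female 3, 3.74 in TG female 1 and 3.24 in TG female 4, against 2.49 to 7.43 with a median of 4.83, so that the classes overlapped. It fell by 0.80 on the log2 scale ± 0.22 (edgeR adjusted p = 0.0056).

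The contractile genes were highest in 1 library, WT male 3. Acta2, smooth muscle actin, was at 5.98 CPM in WT male 3 but at 1.56 CPM in WT female 3, at 2.32 in TG female 1 and at 1.14 in TG female 4, and the olfactory class lay between 1.22 and 2.09. It was called higher (0.94 ± 0.30 log2, edgeR adjusted p = 0.0152), and without WT male 3 the difference was 0.23 (adjusted p = 0.539). Tagln (0.46) and Myh11 (0.52) did not pass, and their levels in WT male 3 were 16.1 and 11.7 CPM.

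Of the 6 fibroblast genes, 4 rose and none fell. Col1a2, a chain of type I collagen, was at 13.6 CPM in WT male 3, 12.9 in WT female 3, 16.5 in TG female 1 and 9.71 in TG female 4, against 3.27 to 8.46 with a median of 5.48. It did not overlap, with a log2 difference of 1.22 ± 0.23, or 2.33-fold (edgeR adjusted p = 0.000458). The proteoglycan Dcn was at 61.1 CPM in WT male 3, 22.7 in WT female 3, 47.6 in TG female 1 and 16.0 in TG female 4, against 9.30 to 22.3 with a median of 14.1. A pair of hindbrain libraries was far above the rest while TG female 4 lay inside the olfactory range. Dcn's log2 difference was 1.36 ± 0.35 (edgeR adjusted p = 0.005).

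Lum, a related proteoglycan, rose by 1.09 log2 and Igf2 by 0.84. Col1a1, the partner chain of Col1a2, was at 14.6 CPM in WT male 3, 7.75 in WT female 3, 15.9 in TG female 1 and 6.07 in TG female 4. In the olfactory class it ran from 5.62 to 24.8 with a median of 9.49, and the difference of 0.07 ± 0.39 did not pass. Slc6a13, the meningeal GABA and taurine transporter, did not pass at 0.11.

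WT male 3 and TG female 1, the highest of the hindbrain class in Dcn, Lum, Col1a1, Col1a2 and Slc6a13, bear on these counts. In Igf2 WT male 3 ranked below WT female 3. Without WT male 3 the called genes fell from 21 to 12, and without both libraries to 10. The 10 were Abcc9, Slc2a1, Mfsd2a, Notch3, Egfl7, Col1a2, Flt1, Ly6c1 and Rgs5, all higher, and Anpep, lower. Dcn lost its call without WT male 3 (0.73 log2, adjusted p = 0.141) and without both (0.29, adjusted p = 0.471), and so did Lum (0.44 and -0.14) and Igf2 (0.71 and 0.39). The 8 perivascular macrophage markers summed to 31.0 CPM in WT male 3 and 29.6 CPM in TG female 1. In WT female 3 and TG female 4 they summed to 21.2 and 15.04 CPM. Lyve1 was at 7.16 and 4.78 CPM in WT male 3 and TG female 1, against 0.775 to 2.97 CPM in the other 13 libraries. Pf4 and F13a1 were also highest in WT male 3. The remaining markers were highest elsewhere, Mrc1 in WT female 1, Cd163, Siglec1 and Ms4a7 in TG female 2, and Cbr2 in TG male 1. The part of these 8 markers in the result was not tested.

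**Figure D2:**
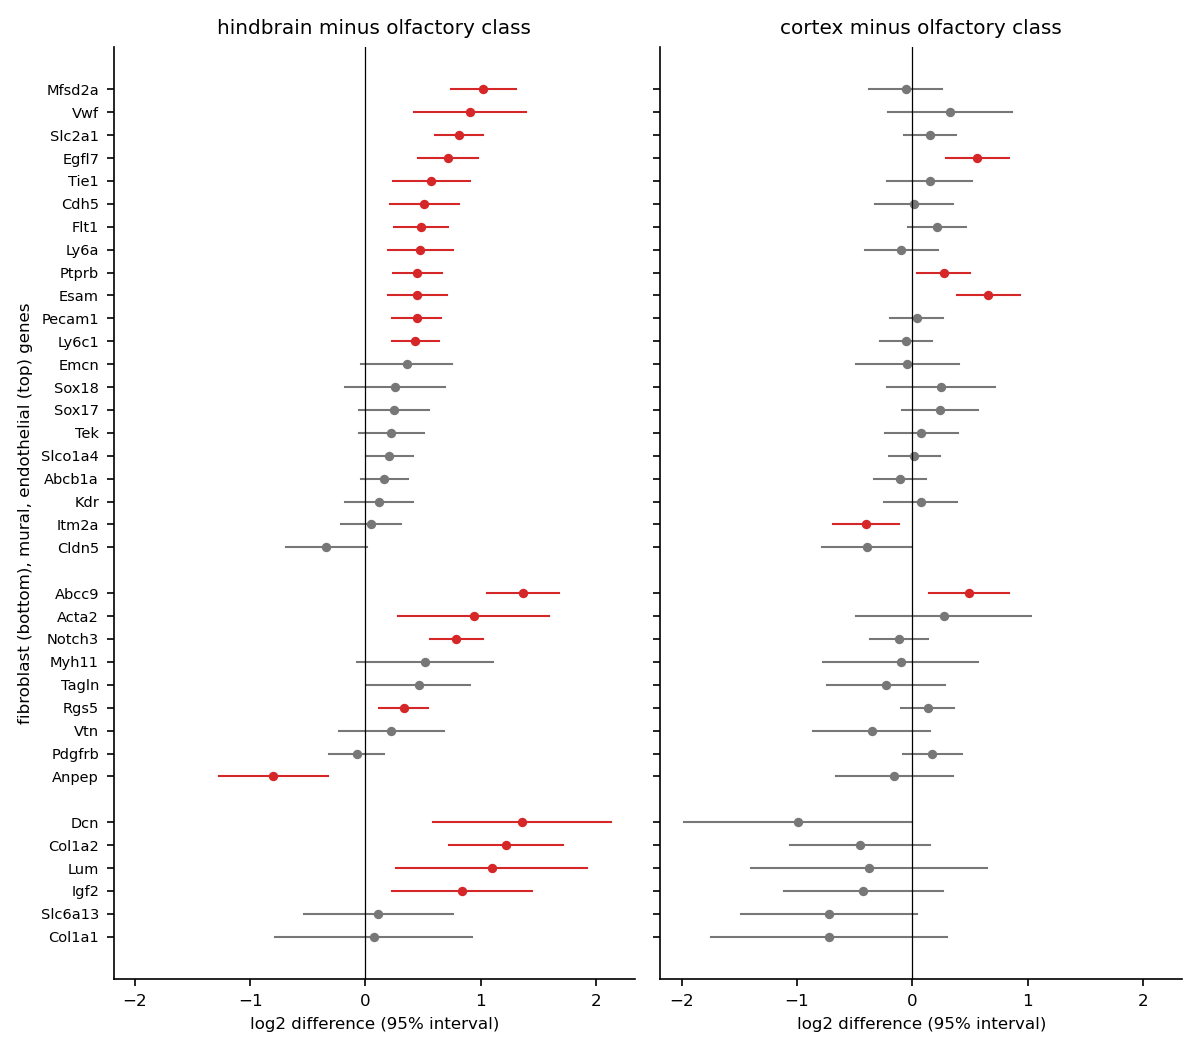
Log2 difference with its 95% interval (horizontal axis) for each of the 36 genes (vertical axis, fibroblast genes at the bottom, then mural, then endothelial), hindbrain minus olfactory class on the left and cortex minus olfactory class on the right; red marks an adjusted p under 0.05. Red points on the left lie to the right of 0 except Anpep, and 5 genes are red on the right.

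The cortex class differed less. Of the 36 genes, 4 were higher than in the olfactory class and 1 was lower, against 48.9% of all genes called in either direction, 25% higher and 23.9% lower. Higher were the junction protein Esam (0.66 ± 0.13 log2, edgeR adjusted p = 0.000865), Egfl7 (0.56 ± 0.13), Abcc9 (0.49 ± 0.16) and Ptprb (0.27 ± 0.11), and lower was Itm2a, by -0.40 ± 0.13. Esam was at 19.4 CPM in the library WT male 4, at 18.3 in WT female 2 and at 24.7 in TG male 4, against 10.7 to 15.5 CPM in the olfactory class, without overlap. All 6 fibroblast genes had a negative difference, from -0.99 (Dcn) to -0.37 (Lum), and none passed. In 2 genes the cortex libraries all lay above the olfactory ones (Esam and Egfl7) and in 1 below (Dcn), against 19.9% and 17.9% of all genes. With classes formed from list means, none of the 36 was called, and the share of all genes called with these classes is not given here.

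Against the cortex class, the hindbrain class was higher in 14 of the 36 genes and lower in none, against 55.6% of all genes called in either direction, 28.2% higher and 27.5% lower. The 14 were 7 endothelial, 3 mural and 4 fibroblast genes. Dcn differed most, at 5.52 to 8.64 CPM in the 3 cortex libraries against 16.0 to 61.1 CPM, a log2 difference of 2.35 ± 0.49 (edgeR adjusted p = 0.00188). Col1a2 (1.68), Lum (1.47), Igf2 (1.26), Mfsd2a (1.08), Notch3 (0.90), Abcc9 (0.87) and Slc2a1 (0.65) followed. In 17 genes the hindbrain libraries all lay above the cortex ones, against 29.8% of all genes. Without WT male 3 the count was 8, of which 7 were higher and Anpep was lower. Without WT female 2 it was 7. With the replicate number as a block it was 6, of which 5 were higher and Anpep was lower. The share of all genes called in these fits is not given here. Of the genes named here, Lum and Igf2 lost their calls without WT male 3, and Dcn, Lum, Igf2 and Abcc9 lost theirs with the block, while Col1a2, Mfsd2a, Notch3 and Slc2a1 passed in both. Dcn differed by 1.58 log2 without WT male 3 (edgeR adjusted p = 0.0293) and by 1.79 with the block (adjusted p = 0.0701).

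Spread within a class was widest in the fibroblast genes. In the hindbrain class the median ratio of highest to lowest library was 3.18 for fibroblast, 1.60 for mural and 1.28 for endothelial genes, and in the olfactory class 2.36, 1.68 and 1.68. Within the olfactory class WT female 1 was highest for 13 of 21 endothelial, 5 of 9 mural and 5 of 6 fibroblast genes. Within the cortex class TG male 4 was highest for 15 of 21 endothelial and 7 of 9 mural genes but for 1 of 6 fibroblast genes, of which WT male 4 was highest for 5. The cerebellum library, TG female 3, held the highest Vwf (30.0 CPM), Ly6a (34.6 CPM) and Ly6c1 (47.6 CPM) of all 15 libraries. Its 10 choroid plexus markers summed to 1301 CPM, against at most 258 CPM elsewhere, and no test was made on this 1 library.

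**Figure D3:**
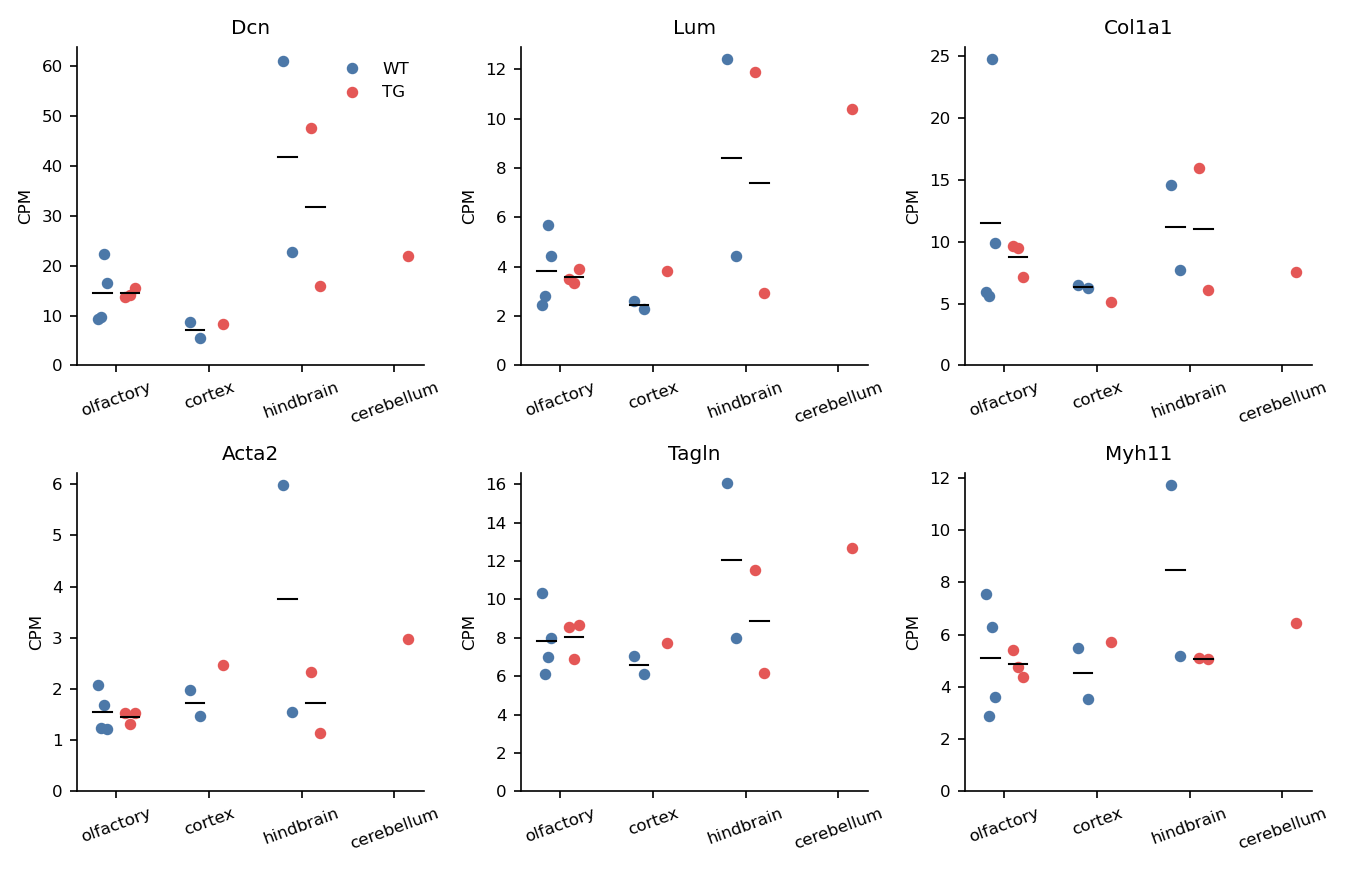
CPM (vertical axes, from 0) of 3 fibroblast genes (Dcn, Lum, Col1a1) and 3 smooth muscle genes (Acta2, Tagln, Myh11) in each library by class (horizontal axes); points are libraries, blue WT and red TG, and bars are means of 2 or more libraries. WT male 3 is the top hindbrain point in Dcn (61.1 CPM), Lum and the smooth muscle genes, and WT female 1 is the top olfactory point in Col1a1 (24.8 CPM).

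Other genes of the vessel wall and its signals, from lists of related genes, moved in both directions between the hindbrain and olfactory classes. The share called was 61.5% of the other endothelial, 44.4% of the artery and vein, 44.4% of the other mural, 43.3% of the other fibroblast and meningeal, 64.7% of the basement membrane, 57.1% of the vascular ligand and 66.7% of the Wnt genes. These shares were at or below the 66.8% of all genes called, so that the counts are no result about the lists. Many of them are also expressed by neurons or glia. Of 26 other endothelial genes 15 rose and 1 fell, and among them the erythroid and endothelial factor Tal1 (2.26 log2) and the junction protein Cgnl1 (1.57) rose most, and Apold1 fell by 2.21 on the log2 scale. Of 18 artery and vein genes 5 rose and 3 fell. Matrix Gla protein, Mgp, rose by 1.07 and the amino acid transporter Slc38a5 by 0.85, while the arterial genes Hey2 (-1.79) and Efnb2 (-1.55) fell.

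Of 18 other mural genes 6 rose and 2 fell. Tropomyosin Tpm2 (1.18) and calponin Cnn1 (1.09 ± 0.38) rose most, and the transcription factors Tbx18 (-1.96) and Zic1 (-1.41) fell. Cnn1 was low and spread widely, at 0.44 ± 0.16 CPM (SD, n = 7) in the olfactory and 0.80 ± 0.64 CPM (n = 4) in the hindbrain class. Of 30 other fibroblast and meningeal genes 8 rose and 5 fell. Spp1, osteopontin, rose by 1.89 and the collagen Col3a1 by 1.52, while the secreted Ccn3 (-3.43) and the collagen Col6a1 (-3.41) fell. Of 17 basement membrane genes 6 rose and 5 fell, with Sparc (2.07) and the laminin chain Lama1 (1.46) rising and the laminin chains Lama4 (-0.90) and Lama5 (-0.71) falling.

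Of 21 vascular ligands 6 rose and 6 fell. The Notch ligand relative Dlk1 (4.15 ± 1.00) and placental growth factor Pgf (1.74) rose most, and Igf1 (-1.43) and Angptl4 (-1.42) fell. Of 15 genes of the Wnt signal that maintains the barrier 3 rose and 7 fell. Tspan12 (0.98) and Nkd1 (0.45) rose most, and Tcf7 (-2.002) and Apcdd1 (-1.42) fell most. The median difference was 0.39 over the other endothelial genes and -0.29 over the Wnt genes, against 0.00 over all genes.

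Between genotypes none of the 36 genes passed the test. With class and sex as terms, 0.496% of all genes were called by edgeR, and 3 of the 36 had an unadjusted p under 0.05, against 8.4% of all genes. DESeq2 called none of the 36 either. The log2 differences, TG minus WT, ran from -0.24 to 0.35, with 18 above and 18 below 0, and a median of 0.00 over the 36 and over all genes. The 95% interval lay within 2-fold for all 36 genes and within 1.5-fold for 28. By group, 13 of 21 endothelial, 3 of 9 mural and 2 of 6 fibroblast genes were above 0. Without the class term 0.111% of all genes were called and 2 of the 36 had an unadjusted p under 0.05, against 1.83% of all genes. Blood markers, 7 genes, summed to 47.1 to 483 CPM in WT and 27.3 to 86.3 CPM in TG libraries, and their part in these values was not tested.

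The 3 genes with the smallest p were endothelial. Ly6c1 was at 24.4 (WT male 1), 18.7 (WT male 2), 27.1 (WT female 1) and 27.5 CPM (WT female 4) in the WT libraries of the olfactory class. The TG libraries of that class had 31.3 (TG female 2), 30.0 (TG male 1) and 27.8 CPM (TG male 3). The genotypes did not overlap, which held for 3.83% of all genes in that direction and for no other of the 36. In the hindbrain class it was at 33.1 and 34.8 CPM in WT against 35.6 and 46.0 CPM in TG, and in the cortex class at 23.5 and 22.5 CPM against 28.9 CPM. The log2 difference was 0.29 ± 0.08 (edgeR adjusted p = 0.231), and it did not pass. Over the alternatives its adjusted p ran from 0.0929, by DESeq2, to 0.506.

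Ly6a, its neighbour on chromosome 15, was at 14.3, 10.7, 15.5 and 13.5 CPM in the WT and at 23.6, 14.05 and 14.3 CPM in the TG olfactory libraries, and these overlapped. In the hindbrain class it was at 20.3 and 19.5 CPM in WT and 22.1 and 26.2 CPM in TG. The log2 difference of 0.35 ± 0.11 did not pass (edgeR adjusted p = 0.355), and without TG female 2 it was 0.24. Abcb1a differed by 0.19 ± 0.08 (adjusted p = 0.529). Ly6c1 and Abcb1a have close copies that can share reads, Ly6c2 at 0.0921 to 1.62 CPM and Abcb1b at 4.42 to 11.3 CPM, and how such reads were counted is not given in the sources used here.

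**Figure D4:**
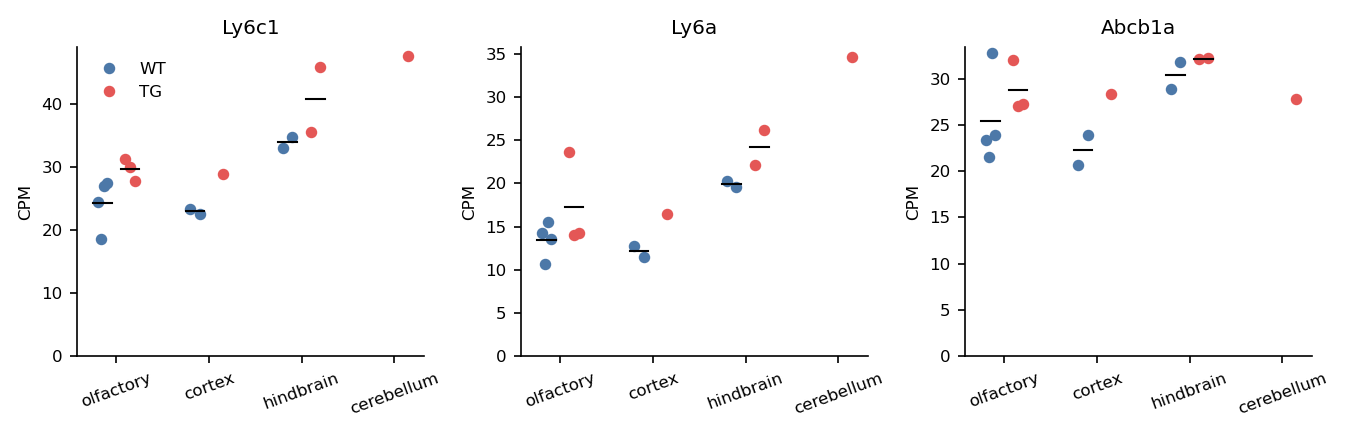
CPM (vertical axes, from 0) of Ly6c1, Ly6a and Abcb1a in each library by class (horizontal axes); points are libraries, blue WT and red TG, and bars are means of 2 or more libraries. For Ly6c1 the TG points lie above the WT points in the olfactory class, from 27.8 CPM against at most 27.5 CPM, and the cerebellum library is highest at 47.6 CPM.

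No mural or fibroblast gene was called for genotype. The mural genes with the smallest p were Acta2 (-0.24 ± 0.27 log2, adjusted p = 0.853) and Rgs5 (0.06 ± 0.08, adjusted p = 0.883). The fibroblast genes were Col1a1 (-0.24 ± 0.34, adjusted p = 0.89) and Dcn (-0.09 ± 0.32, adjusted p = 0.967). In the olfactory class Rgs5 was at 9.90, 10.5, 14.7 and 13.6 CPM in WT and at 13.8, 12.7 and 12.4 CPM in TG, and Dcn at 9.30, 9.72, 22.3 and 16.6 CPM in WT and at 13.8, 14.1 and 15.6 CPM in TG. The TG libraries lay inside the WT range for both genes.

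Within the olfactory class no gene of the 36 was called by edgeR, against 0.245% of all genes, and 3 had an unadjusted p under 0.05 (Ly6c1, Ly6a and Abcb1a), against 7.75% of all genes. Within the hindbrain class none was called, against 0.07%, and none had an unadjusted p under 0.05, against 5.81%. The interval lay within 2-fold for 31 of 36 genes in the olfactory and 26 of 36 in the hindbrain class. The difference between the genotype effects in these classes was called for none of the 36, against 0.0117% of all genes. In the cortex class, with 1 TG library, and in the cerebellum class only values can be given.

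**Figure D5:**
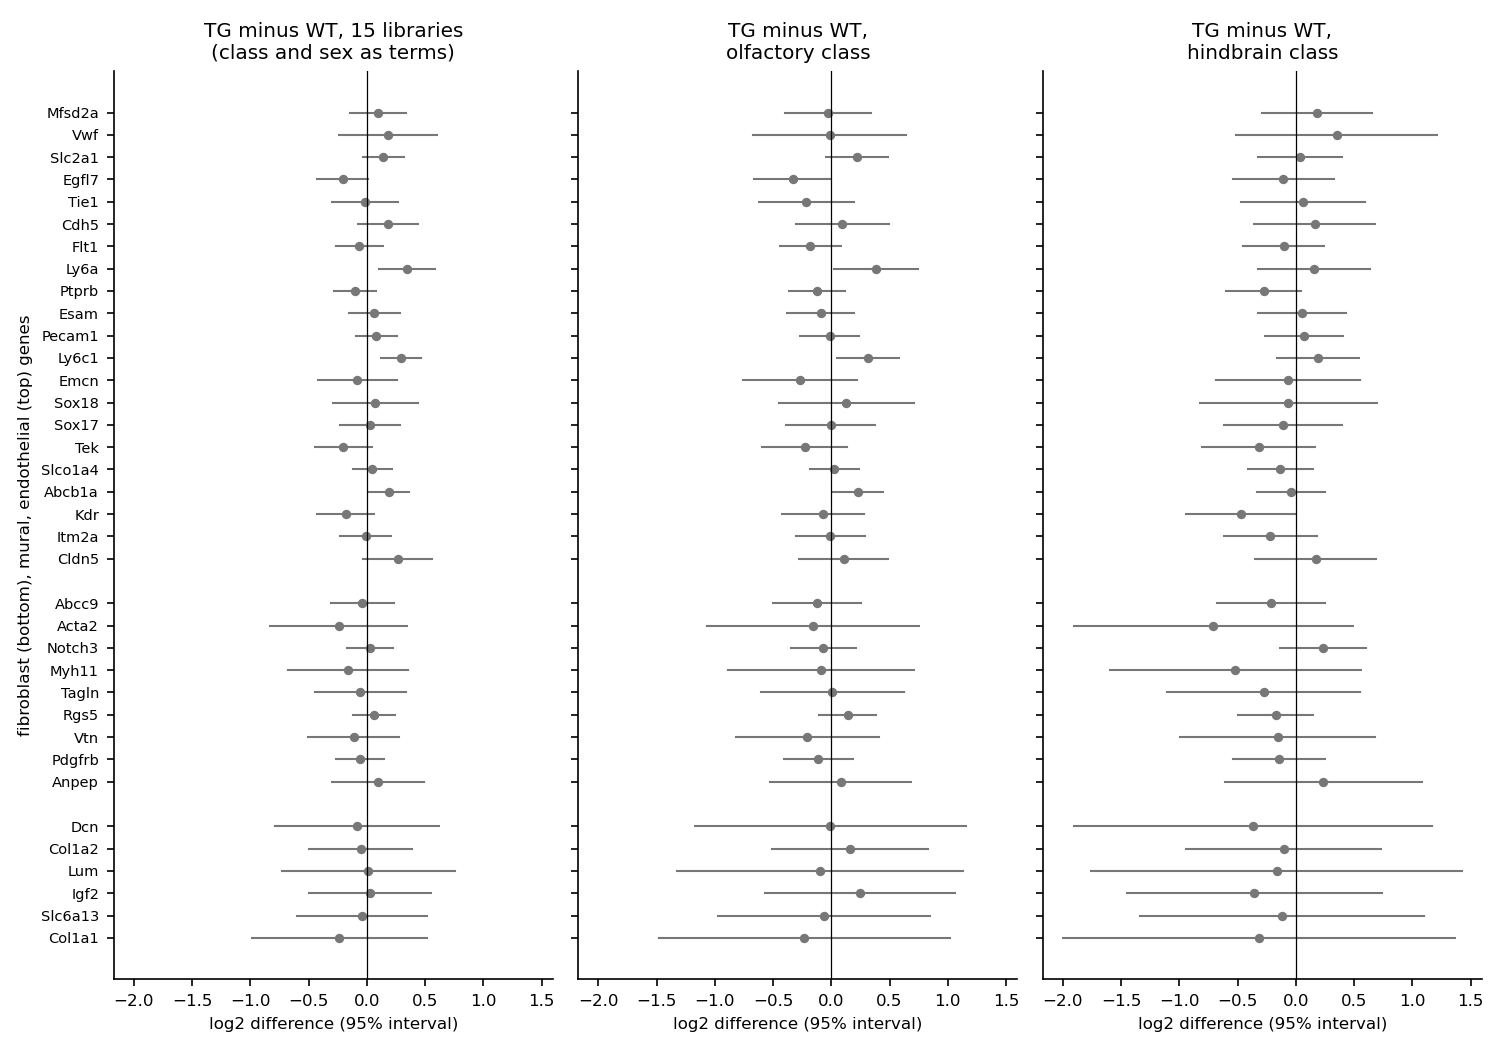
Log2 difference TG minus WT with its 95% interval (horizontal axes) for each of the 36 genes (vertical axis, fibroblast genes at the bottom, then mural, then endothelial), over all 15 libraries with class and sex as terms, within the olfactory class and within the hindbrain class. No gene has an adjusted p under 0.05, and the widest interval in each panel is that of Col1a1.

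The lists of related vascular genes also held no genotype call, with class and sex as terms, against 0.496% of all genes. Unadjusted p was under 0.05 for 2 of 26 other endothelial genes, 1 of 18 other mural genes, 1 of 21 vascular ligands and 1 of 15 Wnt genes. It was so for none of the artery and vein, other fibroblast and basement membrane genes. Over all genes the share was 8.4%, so that these counts are no result about the lists. Between females and males none of the 36 was called by edgeR, against 0.07% of all genes. Acta2 (female minus male -0.72 ± 0.27 log2) and Anpep (0.43 ± 0.19) had an unadjusted p under 0.05, against 5.52% of all genes, and both had an edgeR adjusted p of 0.874. WT male 3, the only male of the hindbrain class, held Acta2 at 5.98 CPM, against 1.14 to 2.32 CPM in the females of that class. In the olfactory class the sexes overlapped, at 1.24 to 2.09 CPM in males and 1.22 to 1.69 CPM in females.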

How the data were processed

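RNA was measured in 15 bulk libraries made from total RNA after removal of ribosomal RNA with a stranded kit, per the labels' protocols. The authors deposited raw read counts per NCBI gene ID in 1 table. Per the submitters' processing notes, STAR 2.7.5b, GRCm38, featureCounts and Subread were used. Use of strand and treatment of reads with several matches are not given in the sources used here. Symbols came from RefSeq on GRCm38.p6 for 25275 IDs and GENCODE for 18, and the 1886 without a symbol held 0.836% of counts.

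The tests used edgeR 4.0.16 under R 4.3.3 (counts, filterByExpr over genotype and sex, TMM, robust quasi-likelihood F test, Benjamini-Hochberg over 17151 genes at 0.05), with DESeq2 1.42.0 as an alternative. Terms were genotype, sex and library class. Genotype within a class used class-by-genotype means. Every pair of libraries differed by more than counting error (chi-square per gene of at least 6.07). Classes are 4 Ward clusters on log2 CPM (prior count 2) of single genes of 5 region lists. The design had called for list means, which gave clusters of equal size and put WT male 2 and TG male 3, both with olfactory bulb markers, with the cortex libraries. The change to single genes was made after seeing the data. List-mean classes are kept as an alternative, and leaving out WT male 3 and TG female 1 was added as another after seeing the data.

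The 36 genes and the gene lists were chosen with earlier results of these data known. Within each of the 3 groups, values by library are given for genes called for genotype or sex, for the 2 with the smallest p for genotype and for the hindbrain contrast, and for those with the highest and lowest hindbrain difference. Egfl7, Tie1, Esam, Abcb1a, Acta2, Tagln and Myh11 were described further after their values were seen. Of related lists, up to 2 called genes per direction are named. On simulated data for the genotype contrast over 17151 genes, 58% of genes changed 1.5-fold and 82% of those changed 2-fold were recovered. The simulation held no class differences, and the 50 genes changed per fold were drawn at random from all genes. Its recovery is therefore not that of the 36 genes.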

Additional observations from a re-analysis of the deposited data

Results flagged for a closer look

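Of 72 pairs of a gene and a library class with 4 to 10 libraries, 6 held a library far from the others of its class, where chance gives about 1 in 20. In the hindbrain class, WT male 3 was lowest for Abcb1a, at 28.9 CPM against 31.8 to 32.2 CPM in the other 3 libraries, and highest for Myh11, at 11.75 CPM against 5.05 to 5.17 CPM. In the olfactory class, TG female 2 was highest for Ly6a, at 23.6 CPM against 10.7 to 15.5 CPM. WT male 1 was highest for Egfl7, at 22.4 CPM against 12.7 to 16.4 CPM. WT female 4 was highest for Emcn, at 2.99 CPM against 1.43 to 2.03 CPM. WT female 1 was highest for Col1a1, at 24.8 CPM against 5.62 to 9.86 CPM.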

How the results depend on the processing

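The count of called genes among the 36 stayed at 0 for every genotype and sex comparison under each alternative run. For the hindbrain against the olfactory class it was 12 to 26 with 1 library left out (lowest without WT male 3) and 10 without WT male 3 and TG female 1. For the cortex against the olfactory class it was 3 to 6 with 1 library left out (lowest without WT female 2), 3 with the replicate block and 0 with classes from list means. For the hindbrain against the cortex class it was 7 to 17 with 1 library left out, 6 with the replicate block and 8 without WT male 3 and TG female 1. With the block and without both libraries, Anpep was called lower and the other called genes were higher. The causes were not tested. The share of all genes called under each alternative is not given here, so that changes in count are no result particular to the 36 genes. Correlations of same-number deviations from the genotype-by-sex means ran from -0.63 to 0.92 over 21 pairs. Of 15 libraries, 3 correlated best with their own number. Library class was not removed from these deviations, so that they cannot show whether replicate numbers pair the libraries. With the block, 15 genes were called for the hindbrain against the olfactory class.

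Of 366 recomputed values of 15 named results, 344 kept direction and side of the threshold. Uncalled values that changed sign were, for genotype, Acta2 (0.0469) and Dcn (0.17) without the hindbrain and cerebellum libraries, and Dcn with classes from list means (0.019) and without WT male 3 and TG female 1 (0.0335). For the hindbrain against the olfactory class, Col1a1 was -0.0293 with the replicate block, -0.0745 with classes from list means and -0.92 without both libraries. With 1 library left out, genotype differences ran from -0.38 to 0.0739 for Acta2, -0.28 to 0.26 for Dcn and -0.42 to 0.0747 for Col1a1, and the hindbrain difference of Col1a1 from -0.50 to 0.46. The call for Dcn was also lost with the block (1.11), and Cldn5 was called lower in 2 of 15 fits without 1 library. Genes near 1 CPM, such as Acta2, carry the largest counting error.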
